A study of Rattus norvegicus with 42 samples.

Results

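Adrenergic receptors are the 7-transmembrane proteins through which noradrenaline and adrenaline act on cells. The transcripts described here are Adra1a, Adra1b and Adra1d, which encode the alpha-1 receptors, Adra2a, Adra2b and Adra2c, which encode the alpha-2 receptors, and Adrb1, which encodes the beta-1 receptor. They were chosen by gene symbol, and each symbol had 1 transcript in the count table, so that 7 of 15516 transcripts and 7 of 14304 gene symbols are covered. The hippocampus of male Sprague Dawley rat pups was sequenced with 1 library per animal, after 1 intraperitoneal injection on postnatal day 7 of saline (vehicle, VEH, 13 animals), phenobarbital (PB, 75 mg/kg, 14 animals) or levetiracetam (LEV, 200 mg/kg, 14 animals). PB and LEV are anti-seizure medicines given to newborns. Tissue was taken 72 h after the injection, all pups were wild type, and a further VEH animal (number 7), whose label marks it as excluded, was left out. Animals came in 2 orders. Their sample codes have 2 forms, one carried by animals 1 to 6 of each group and the other by animals 7 to 14, and this form of the sample code was used as the batch. No label says whether the form marks the 2 orders of animals or a sequencing batch.

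Noradrenaline reaches the hippocampus through axons of the locus coeruleus, a brainstem nucleus whose cell bodies lie outside the dissected tissue. Alpha-1 receptors act through Gq proteins, phospholipase C and protein kinase C, alpha-2 receptors act through Gi and Go proteins that lower cyclic AMP and open potassium channels, and beta receptors act through Gs proteins that raise cyclic AMP. Alpha-2 receptors also sit on noradrenergic terminals, where they limit transmitter release. In the hippocampus this system is known for its influence on synaptic plasticity, memory and seizure threshold.

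Libraries held between 9499492 and 14488134 estimated counts over the 41 animals. Markers of hippocampal principal neurons were present in every animal: normalized counts (counts scaled to a library of the mean effective size) ran from 498 to 1165 for Prox1, the dentate granule cell factor, from 304 to 1811 for Wfs1, a CA1 marker, and from 1023 to 1772 for Fibcd1, also a CA1 marker. The sum of 6 choroid plexus markers ran from 39.3 to 83600, so the libraries differed widely in how much of that tissue they held. In bulk tissue, fewer cells of a type and less RNA per cell cannot be told apart. The study balanced treatments within litters, but no label gives the litter, so litter was not in the model. No label ties the animals of 1 number to each other, and p-values measure the spread between these animals.

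A single receptor, Adra1d, differed between drug groups. It was lower after PB than after either VEH or LEV, while the other 5 receptors that could be tested passed the limits in no comparison. A transcript was called changed at an adjusted p under 0.05 (edgeR quasi-likelihood test, Benjamini-Hochberg over all 13062 transcripts tested) and a change of 1.25-fold or more, up or down. Of the 7 receptors, 6 passed the filter on low counts, and Adra2b did not. The comparisons of PB and of LEV with VEH share the VEH animals.

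Of the alpha-1 receptors, Adra1d lies at 124129558 to 124145567 of chromosome 3 (rn6) and encodes the alpha-1D receptor, which is known for its expression in brain and in the smooth muscle of large arteries. Its normalized counts in VEH animals were lowest at 208, had a median of 342 and were highest at 430, with a mean of 333 ± 55.2 (SD, n = 13). After PB they ran from 158 to 407 with a median of 243 and a mean of 263 ± 67.3 (SD, n = 14). After LEV they ran from 250 to 490 with a median of 323 and a mean of 328 ± 57.5 (SD, n = 14). The PB animals lay towards the low end, with 12 of 14 below the VEH median and 13 of 14 below the mean of the VEH animals that share their code form, yet the groups overlapped, since PB animal 5 had 407 and VEH animal 9 had 208.

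The fitted log2 fold change of Adra1d in PB against VEH was -0.34 ± 0.098 (SE), with a 95% interval from -0.54 to -0.14 and an adjusted p of 0.0320 in edgeR, which corresponds to 1.26-fold lower counts. Called transcripts were 0.605% of all tested in that comparison. Against LEV the log2 fold change after PB was -0.33 ± 0.096 (SE), with an interval from -0.52 to -0.13 and an adjusted p of 0.0408 in edgeR, and 12 of 14 PB animals were under the mean of LEV animals with the same code form. In that comparison 0.582% of transcripts were called. LEV and VEH differed by -0.01 ± 0.097 (SE) on the log2 scale, with an interval from -0.21 to 0.18 and an adjusted p of 0.993. The call of Adra1d was near the limit. It was lost when VEH animal 3, 5 or 13 or PB animal 1, 2, 7 or 10 was left out, with log2 fold changes from -0.30 to -0.32 and adjusted p from 0.0529 to 0.0645. Against LEV it was lost in 14 of 41 such fits, with adjusted p from 0.0511 to 0.0944, on leaving out LEV animal 2, 4, 7, 10, 11, 12 or 13 or PB animal 1, 2, 7, 9, 10, 11 or 14.

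**Figure D1:**
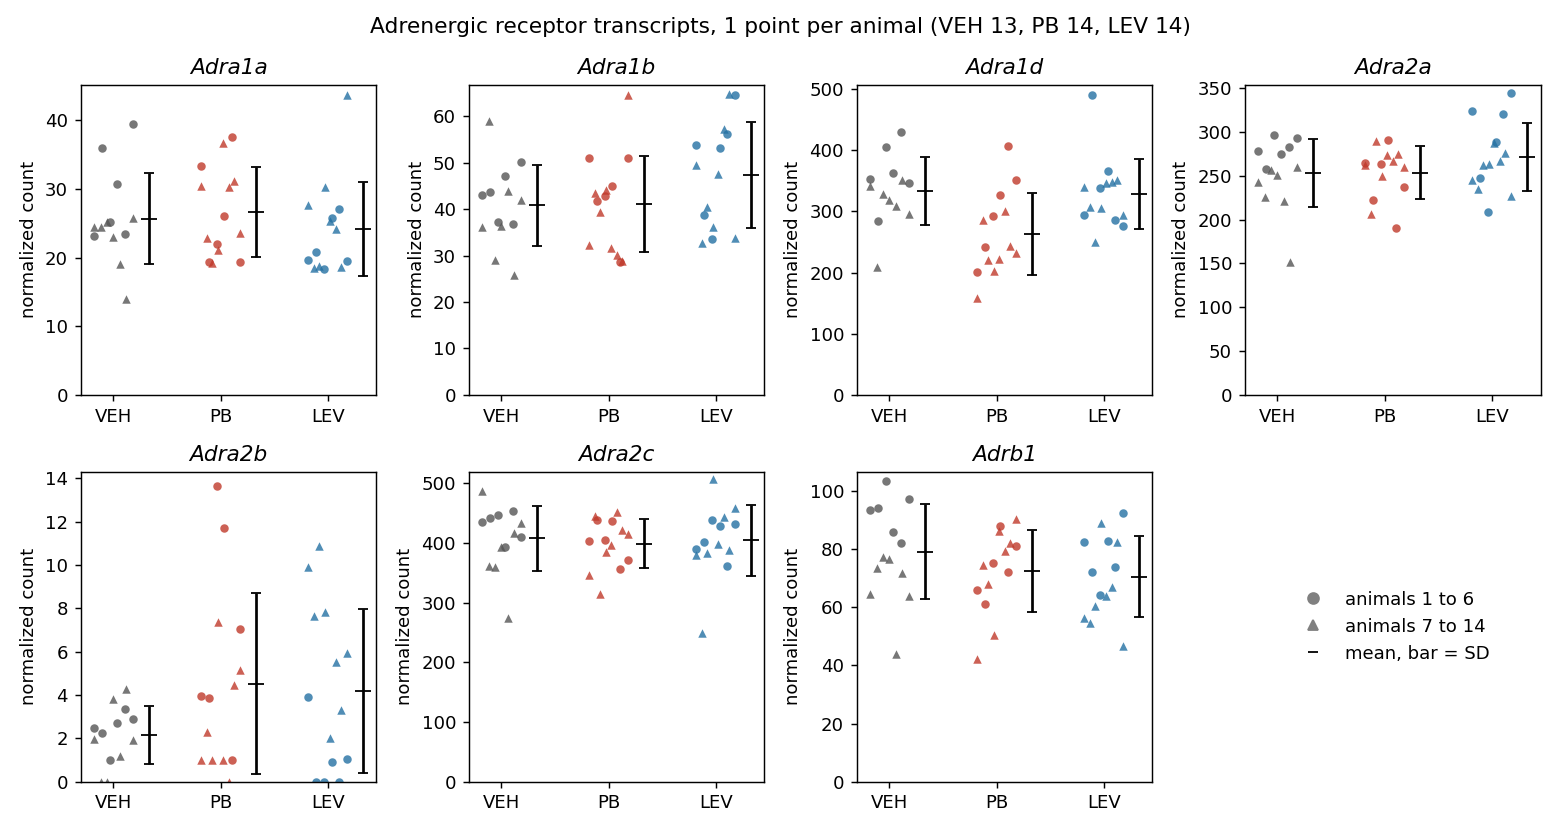
Normalized counts of the 7 adrenergic receptor transcripts (vertical axes, starting at 0) in VEH, PB and LEV animals, 1 point per animal, with circles for animals 1 to 6 and triangles for animals 7 to 14, and the mean and SD of each group beside its points. Adra1d points lie lower in PB (mean 263) than in VEH (mean 333) and LEV (mean 328), with overlap, and for each of the other receptors the 3 groups share most of their range, apart from the highest Adra2b values, which are in drug groups.

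Within animals 1 to 6, Adra1d had a mean of 364 ± 50.6 (SD, n = 6) after VEH and 303 ± 74.5 (SD, n = 6) after PB. Within animals 7 to 14 the means were 308 ± 47.8 (SD, n = 7) after VEH and 233 ± 45.2 (SD, n = 8) after PB. So the direction was the same in both forms of the sample code. In a model with a separate PB term for each form, animals 1 to 6 gave a log2 fold change of -0.26 ± 0.144 (SE, adjusted p = 0.577, edgeR) and animals 7 to 14 gave -0.40 ± 0.133 (SE, adjusted p = 0.0592, edgeR), so neither form passed alone in that model. In a fit of animals 7 to 14 alone, Adra1d passed both limits for PB against VEH (-0.40, adjusted p = 0.0459, edgeR) and for PB against LEV (-0.45, adjusted p = 0.0469, edgeR), while a fit of animals 1 to 6 alone gave -0.26 (adjusted p = 0.527, edgeR) and -0.18 (adjusted p = 0.653, edgeR). In the model with separate PB terms, the log2 fold changes of PB against VEH in the 2 forms differed by 0.14, with an interval from -0.26 to 0.54. The adjusted p was 0.852 in edgeR, in a test where 0.0689% of transcripts had an adjusted p under 0.05. LEV animals had a mean of 342 ± 80.4 (SD, n = 6) in animals 1 to 6 and 318 ± 35.4 (SD, n = 8) in animals 7 to 14. The spread of LEV animals 1 to 6 rests largely on LEV animal 2, at 490.

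**Figure D2:**
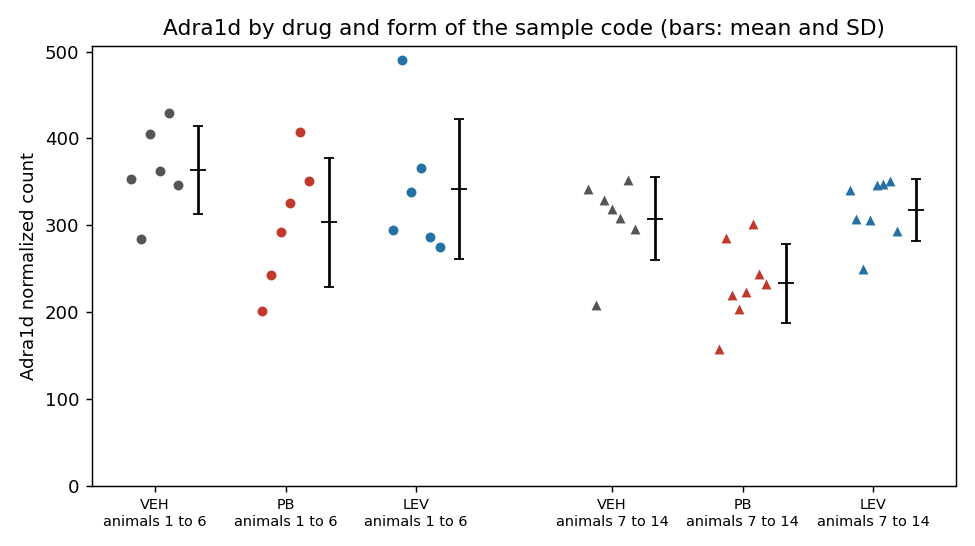
Normalized counts of Adra1d (vertical axis, starting at 0) by drug within each form of the sample code, 1 point per animal, with the mean and SD beside each set of points. PB means lie below VEH means in both forms, at 303 against 364 in animals 1 to 6 and at 233 against 308 in animals 7 to 14.

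Adra1b encodes the alpha-1B receptor and lies at 29392762 to 29450645 of chromosome 10 (rn6). VEH animals had normalized counts from 25.7 to 59.0 with a median of 42.0, PB animals from 28.7 to 64.7 with a median of 42.3, and LEV animals from 32.7 to 64.8 with a median of 48.5. LEV animals were thus somewhat higher in the middle of the range, but the 3 groups overlapped over most of it. The log2 difference between LEV and VEH was 0.22 ± 0.129 (SE), with an interval from -0.04 to 0.48 and an adjusted p of 0.856, and that between PB and VEH was 0.02, with an interval from -0.25 to 0.28.

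Adra1a encodes the alpha-1A receptor and lies at 43299385 to 43392432 of chromosome 15 (rn6). It had few counts, from 13.9 to 39.5 in VEH animals (median 24.5), from 19.2 to 37.5 in PB animals (median 24.8) and from 18.4 to 43.7 in LEV animals (median 22.5). The PB and VEH animals differed by 0.05 on the log2 scale, with an interval from -0.24 to 0.35, and the LEV and VEH animals by -0.08, with an interval from -0.38 to 0.21. These intervals are wide enough to hold a change of 1.25-fold, which is 0.322 on the log2 scale, for PB upwards and for LEV downwards.

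The alpha-2 receptors did not pass the test in any drug comparison. Adra2c, at 80730307 to 80732011 of chromosome 14 (rn6), had the smallest relative spread of the receptors, a coefficient of variation of 12.6% over 41 animals. Its normalized counts ran from 274 to 488 after VEH (median 416), from 314 to 452 after PB (median 404) and from 248 to 507 after LEV (median 400), so the PB range lay inside the VEH range and the VEH range inside the LEV range. The log2 differences were -0.03 for PB against VEH, with an interval from -0.18 to 0.11, and -0.01 for LEV against VEH, with an interval from -0.16 to 0.13, both of which leave out a 1.25-fold change.

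Adra2a encodes the alpha-2A receptor, the main autoreceptor of noradrenergic neurons, and lies at 274766283 to 274769084 of chromosome 1 (rn6). VEH animals ran from 151 to 297 (median 258), PB animals from 191 to 291 (median 263) and LEV animals from 208 to 344 (median 265). The lowest animal was VEH animal 13 and the highest was LEV animal 6. PB against VEH gave a log2 difference of 0.01, with an interval from -0.14 to 0.16, and LEV against VEH gave 0.10, with an interval from -0.05 to 0.25. By code form, Adra2a gave -0.20 (animals 1 to 6) and 0.18 (animals 7 to 14) for PB against VEH, but the test of that contrast gave an unadjusted p of 0.0120 and an adjusted p of 0.307 in edgeR.

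Adra2b encodes the alpha-2B receptor and lies at 119805941 to 119809988 of chromosome 3 (rn6). It was nearly silent, with 0 counts in 6 of 41 animals and a highest count of 13. The normalized counts had a median of 2.25 and a maximum of 4.29 in VEH animals, a median of 3.90 and a maximum of 13.6 in PB animals and a median of 3.61 and a maximum of 10.9 in LEV animals. In animals 1 to 6 the mean was 2.45 ± 0.80 (SD, n = 6) after VEH, 6.86 ± 4.92 (SD, n = 6) after PB and 0.978 ± 1.52 (SD, n = 6) after LEV. In animals 7 to 14 it was 1.88 ± 1.69 (SD, n = 7), 2.78 ± 2.59 (SD, n = 8) and 6.62 ± 3.05 (SD, n = 8) in the same order. High values thus stood in animals 1 to 6 for PB and in animals 7 to 14 for LEV, and LEV lay below VEH in animals 1 to 6. In the fit without the filter the log2 difference of PB against VEH was 1.03 ± 0.52 (SE), with an interval from -0.01 to 2.07 and an adjusted p of 0.280 in edgeR. For LEV against VEH it was 0.88 ± 0.53 (SE), with an adjusted p of 0.840, so no difference was detectable at this depth.

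Adrb1 encodes the beta-1 receptor, through which noradrenaline raises cyclic AMP, and lies at 277537585 to 277538986 of chromosome 1 (rn6). Its normalized counts ran from 44.0 to 104 after VEH (median 77.4), from 42.2 to 90.3 after PB (median 75.0) and from 46.6 to 92.4 after LEV (median 69.6). Of 14 LEV animals, 12 were under the mean of VEH animals with the same code form, and the log2 difference was -0.15 ± 0.104 (SE), with an interval from -0.36 to 0.06 and an adjusted p of 0.914. PB and VEH differed by -0.10, with an interval from -0.31 to 0.11 and an adjusted p of 0.630. In the LEV comparison 0% of transcripts were called over the whole table by edgeR, and 6 transcripts by DESeq2. An unadjusted p under 0.05 was held by 763 of 13062 in edgeR, a limit that some transcripts pass without any difference.

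**Figure D3:**
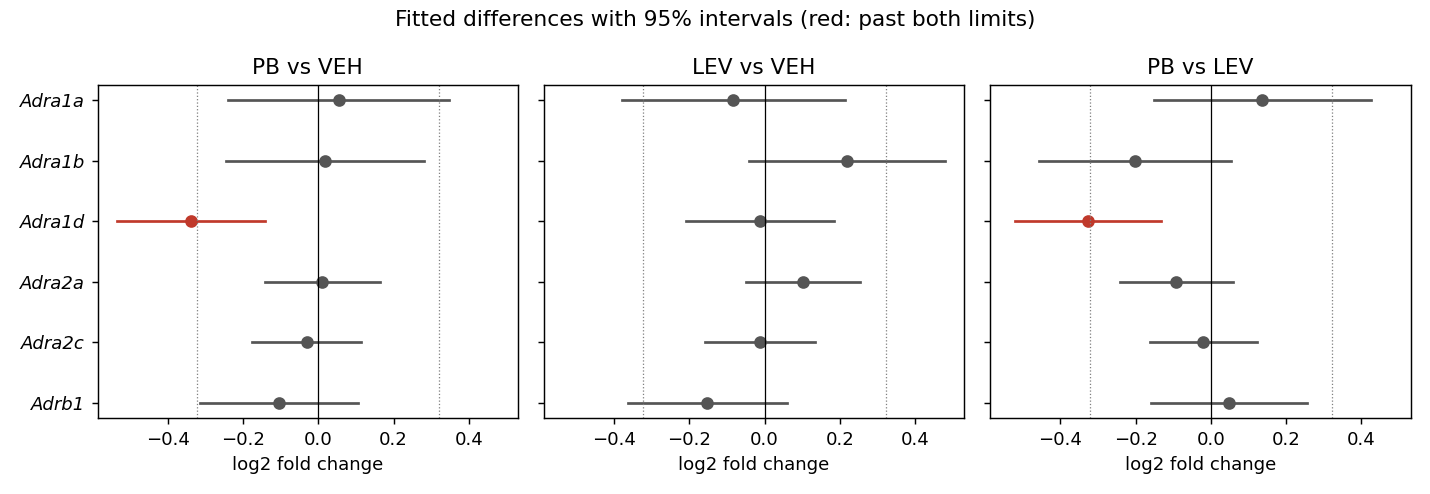
Fitted log2 fold changes (points) with 95% intervals (lines) of the 6 tested receptors in the 3 comparisons, with dotted lines at a fold change of 1.25 in each direction and red for a receptor past both limits. Adra1d stands at -0.34 for PB against VEH and -0.33 for PB against LEV, and each of the other intervals crosses 0.

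Over the 6 tested receptors, 3 log2 differences of PB against VEH were below 0 and 3 above, with a median of -0.01 against 0.00 over all 13062 transcripts, of which 48.1% were below 0. The share below 0 among the receptors, 3 of 6, was near that background. In LEV against VEH, 4 of 6 were below 0, with a median of -0.01.

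The relative level of the receptors could be compared only for Adra2a, Adra2b, Adra2c and Adrb1, which have no introns and whose annotated spans in the count table run from 1401 bases for Adrb1 to 4047 bases for Adra2b. Per 1000 bases of span, the normalized level in VEH animals was 240 ± 31.9 (SD, n = 13) for Adra2c, 90.5 ± 13.8 for Adra2a, 56.5 ± 11.6 for Adrb1 and 0.530 ± 0.330 for Adra2b. In this order each receptor lay above the next in 41 of 41 animals. The ranges of Adra2a, from 54.0 to 106, and of Adrb1, from 31.4 to 74.0, overlapped between VEH animals, while those of Adra2c and Adra2a did not. Adra2c also stood highest of these 4 in the drug groups, with means of 234 per 1000 bases after PB and 237 after LEV. The order without division by span was the same.

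Between the forms of the sample code, 2 of 6 receptors had an adjusted p under 0.05, against 30.2% of all transcripts, so the count was near the background, and none reached a fold change of 1.25. Adra1d was higher in animals 1 to 6 than in animals 7 to 14, by 0.24 on the log2 scale (SE 0.080, adjusted p = 0.0177, edgeR), and Adrb1 was higher by 0.25 (SE 0.085, adjusted p = 0.0203, edgeR). The other 4 tested receptors did not pass, with differences from 0.04 for Adra1a to 0.14 for Adra1b. All 6 estimates were above 0, with a median of 0.13 against 0.00 over all transcripts. Of all transcripts, 15.2% were higher in animals 1 to 6 with an adjusted p under 0.05. The difference between the forms was clearest for Adrb1 in VEH animals, whose counts were 92.8 ± 7.77 (SD, n = 6) in animals 1 to 6, with 82.1 as the lowest, and 67.4 ± 11.6 (SD, n = 7) in animals 7 to 14, with 77.4 as the highest. In PB animals the Adrb1 means were close, 73.9 ± 9.86 (SD, n = 6) and 71.6 ± 17.2 (SD, n = 8) in the same order. In LEV animals they were 78.0 ± 9.90 (SD, n = 6) and 65.0 ± 14.3 (SD, n = 8). The test of PB effects by code form gave -0.41 ± 0.204 (SE, log2 scale) for Adrb1. Its unadjusted p was 0.0521 and its adjusted p 0.456 in edgeR, so it did not pass. In the test of LEV effects by code form, where 0.842% of transcripts had an adjusted p under 0.05, no receptor passed, with the smallest adjusted p, 0.317, for Adra1a.

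The sequences just before the start of Adra1d and Adrb1, the receptors that differed between drugs or between code forms, are shown because the transcript level is the measured quantity. Both are the 250 bases before the annotated start in RefSeq (build GRCr8, so the positions are not those of the count table), written 5′ to 3′ on the strand of the gene, at chr3:139262332-139262581 on the minus strand and chr1:265776853-265777102 on the plus strand, with motif matches in capitals.
Adra1d: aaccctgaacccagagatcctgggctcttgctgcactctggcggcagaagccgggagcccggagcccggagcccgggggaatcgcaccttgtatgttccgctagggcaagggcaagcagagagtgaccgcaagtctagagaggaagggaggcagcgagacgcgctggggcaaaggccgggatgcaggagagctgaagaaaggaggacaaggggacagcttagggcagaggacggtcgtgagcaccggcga
Adrb1: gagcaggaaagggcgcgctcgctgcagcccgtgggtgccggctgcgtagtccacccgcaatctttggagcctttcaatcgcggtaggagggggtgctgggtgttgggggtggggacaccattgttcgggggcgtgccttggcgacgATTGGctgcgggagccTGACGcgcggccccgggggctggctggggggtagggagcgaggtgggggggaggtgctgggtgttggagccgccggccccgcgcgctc

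The cyclic AMP response element TGACGTCA and its partial site TGACG, the GC box GGGCGG, the TATA box TATAAA, the CCAAT box, the E-box CACGTG, the AP-1 site TGANTCA, the EGR site GCGGGGGCG and the NRF1 site (by name only) were searched on both strands of the 250 bases, where the partial site also lies within the full element. The 6 receptors other than Adra1a were found in the promoter table. Adra1d, Adra1b and Adra2a held none of these letters, while Adrb1 held TGACG from position -88 and CCAAT, on the other strand, from position -104, counted back from the start. Over 33469 promoters of this length, TGACG stood in 18.2% and CCAAT in 34.0%. Adra2b and Adra2c each held 2 GC boxes, which stood in 30.5% of promoters. The receptors' promoters were rich in G and C, with 64.0% for Adra1d, 72.0% for Adrb1 and 80.4% for Adra2c against a median of 51.2% over all. A match is a description of the sequence only.

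Genes for the making, packaging, uptake and breakdown of noradrenaline gave no call in any drug comparison. Of 14 genes listed, 9 were tested with 11 transcripts, and 0 of 11 had an adjusted p under 0.05 in PB against VEH, LEV against VEH or PB against LEV, while 5.39% of all transcripts did for PB against VEH. The smallest unadjusted p between PB and VEH belonged to Slc18a2, the vesicular monoamine transporter (log2 difference -0.15 ± 0.098 SE, adjusted p = 0.424, edgeR), and to a Ddc transcript, aromatic amino acid decarboxylase (-0.50 ± 0.336 SE, adjusted p = 0.436, edgeR). Th, the first enzyme of catecholamine synthesis, had between 2.18 and 27.7 normalized counts per animal, and Dbh, which makes noradrenaline from dopamine, had at most 10.0.

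On the Gq arm downstream of alpha-1 receptors, 2 of 18 transcripts tested had an adjusted p under 0.05 for PB against VEH, where 5.39% of all transcripts did, and neither of them reached a fold change of 1.25. Of these, Prkce, an isoform of protein kinase C, fell by 0.15 on the log2 scale (SE 0.047, adjusted p = 0.0423, edgeR). The median of the 18 log2 differences between PB and VEH was -0.03, and 12 of 18 were below 0.

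On the Gi and Go arm of alpha-2 receptors, 0 of 9 transcripts had an adjusted p under 0.05 in a drug comparison. Kcnj6, a potassium channel subunit opened by these G proteins, had the smallest unadjusted p for PB against VEH, with a log2 difference of -0.08 (adjusted p = 0.325, edgeR), followed by Gnai3, an inhibitory G protein subunit, with 0.04 (adjusted p = 0.593, edgeR).

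On the Gs arm of beta receptors, 2 of 28 transcripts had an adjusted p under 0.05 for PB against VEH, again below a fold change of 1.25 and near the 5.39% of all transcripts. These were Prkar1b, a regulatory subunit of protein kinase A, at -0.13 (adjusted p = 0.0233, edgeR), and a transcript of Gnas, the stimulatory G protein subunit, at -0.11 (adjusted p = 0.0255, edgeR). Against LEV, 3 of 28 passed, where 4.45% of all transcripts did. The same Gnas transcript stood at -0.15 (adjusted p = 0.00336, edgeR), Prkar1b at -0.12 (adjusted p = 0.0396, edgeR) and Pde4a, a phosphodiesterase that breaks down cyclic AMP, at -0.17 (adjusted p = 0.0394, edgeR). Adcy9, an adenylyl cyclase, had a log2 difference of -0.18 between PB and VEH with an adjusted p of 0.0529 in edgeR.

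Among receptor kinases and arrestins, which end receptor signalling, 0 of 9 transcripts passed for PB against VEH and 1 of 9 for PB against LEV. This was Arrb1, beta-arrestin 1, higher after PB than after LEV by 0.24 (adjusted p = 0.0208, edgeR). Mean normalized counts of Arrb1 were 475 after VEH, 496 after PB and 419 after LEV, so VEH lay nearer to PB. Of all transcripts, 5.39% had an adjusted p under 0.05 for PB against VEH and 4.45% for PB against LEV. Scaffold partners of these receptors gave 1 of 7 transcripts in each of these comparisons, against the same shares. Scrib, a polarity scaffold protein, rose by 0.17 between VEH and PB (adjusted p = 0.00367, edgeR) and by 0.14 between LEV and PB (adjusted p = 0.0206, edgeR). In the dopamine and histamine receptors, taken as other amine receptors, 0 of 9 transcripts had an adjusted p under 0.05 in any drug comparison. Of these, Hrh1, the Gq-coupled histamine receptor, stood at -0.28 ± 0.119 (SE, adjusted p = 0.171, edgeR) for PB against VEH and an Hrh3 transcript at -0.86 ± 0.527 (SE, adjusted p = 0.380, edgeR). That Hrh3 transcript had few counts, with means of 32.4 after VEH and 17.9 after PB. Hrh3 transcripts with more counts differed relatively less, with means of 132 and 112, and of 163 and 149, in the same order.

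Markers of several cell types moved with PB. All 9 transcripts of the GABA neuron list had log2 differences below 0 for PB against VEH, and 3 had an adjusted p under 0.05, against 5.39% of all transcripts. These were Sst (-0.38, adjusted p = 0.00183, edgeR), Pvalb (-0.83, adjusted p = 0.0188, edgeR) and Slc32a1, the vesicular GABA transporter (-0.27, adjusted p = 0.00367, edgeR). The summed normalized count of the list ran from 5529 to 7835 in VEH animals (median 7170), from 4634 to 7345 in PB animals (median 5979) and from 6329 to 8089 in LEV animals (median 7087). Of 12 transcripts of pyramidal and granule neurons, 11 were below 0 for PB against VEH, with a median of -0.10, and 10 for LEV against VEH, with a median of -0.07. An adjusted p under 0.05 was reached by 4 for PB (Nrgn, Camk2a and both entries of Fibcd1), none with a 1.25-fold change, and by 0 for LEV, and the sum of the list had medians of 49490 (VEH), 43540 (PB) and 48910 (LEV). Of 5 thalamic transcripts, a sign of tissue beside the hippocampus, 2 were called higher after PB than after VEH, where 0.605% of all transcripts were called. These were Tcf7l2 (0.35, adjusted p = 0.0446, edgeR) and Prkcd (0.35, adjusted p = 0.0262, edgeR). Slc17a6, Lef1 and Rgs16 were not called. Their mean normalized counts in VEH and PB animals were 1044 and 1046, 45.9 and 41.9, and 16.7 and 17.6, in that order. The list summed to medians of 1421 (VEH), 1513 (PB) and 1519 (LEV).

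Among 16 astrocyte transcripts, Gfap was called higher after PB than after VEH (0.32, adjusted p = 0.00241, edgeR), while Aldoc (-0.16, adjusted p = 0.0136, edgeR) and a Slc1a3 transcript (-0.16, adjusted p = 0.0286, edgeR) were lower. Of 10 oligodendrocyte transcripts, Opalin was called lower (-1.39, adjusted p = 0.0339, edgeR). The 3 skeletal muscle transcripts tested, Atp2a1 (-2.46), Myh4 (-2.06) and Acta1 (-0.44), were all called lower, and the list summed to medians of 164 (VEH), 122 (PB) and 157 (LEV). All 3 were also called higher in animals 1 to 6 than in animals 7 to 14, with a median log2 difference of 2.87. Normalized counts of Atp2a1 ran from 0 to 71.5 in VEH animals. Over all transcripts tested, 0.605% were called for PB against VEH, and 5.39% had an adjusted p under 0.05. The part of these lists in the Adra1d difference was not tested, apart from the GABA neuron and dentate granule levels below.

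Across the 41 animals, with group and code form removed, Adra1d followed the level of the dentate granule markers Prox1 and C1ql2, with Pearson's r = 0.725 and Spearman's rho = 0.672. This list was taken after the data had been seen, and C1ql2 is the transcript closest to Adra1d in the whole table, so the values are a description with no test. Without the 2 most extreme animals r was 0.663, and within code forms r was 0.837 in animals 1 to 6 (n = 18) and 0.618 in animals 7 to 14 (n = 23). Adra1b went the other way with these markers, with r = -0.516 and rho = -0.457. For the other lists, p-values were adjusted over 72 relations of 6 receptors with 12 marker lists, the dentate granule list included. For the GABA neuron markers r of Adra1d was 0.563 and rho 0.492 (permutation, adjusted p = 0.0036 and 0.0286), with r = 0.519 without the 2 most extreme animals, 0.684 in animals 1 to 6 and 0.384 in animals 7 to 14. For the whole pyramidal and granule list, which holds Prox1 and C1ql2, r was 0.61 and rho 0.661 (permutation, adjusted p = 0.00144 and 0.00072), and r without the 2 most extreme animals was 0.685. For oligodendrocyte markers r was 0.452 (permutation, adjusted p = 0.0474), but rho was 0.29 (adjusted p = 0.481). Astrocyte markers gave r = -0.02 and choroid plexus markers r = 0.03 with Adra1d. Apart from the dentate granule list, no relation of another receptor had an adjusted p under 0.05.

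Fits with a marker level as a covariate were both added after the data had been seen. With the dentate granule markers the Adra1d difference of PB against VEH was -0.30 ± 0.070 (SE, adjusted p = 0.0063, edgeR). It missed the fold limit only. Since these markers hold C1ql2, the transcript closest to Adra1d, this SE and adjusted p are a description with no test. With the GABA neuron markers the Adra1d difference was 0.01 ± 0.117 (SE, adjusted p = 0.994, edgeR), and that covariate left 2 called transcripts in the whole table, against 79 without it. The Adra1d difference, the GABA neuron marker level and PB treatment moved together, and their parts in the result cannot be told apart in these libraries.

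**Figure D4:**
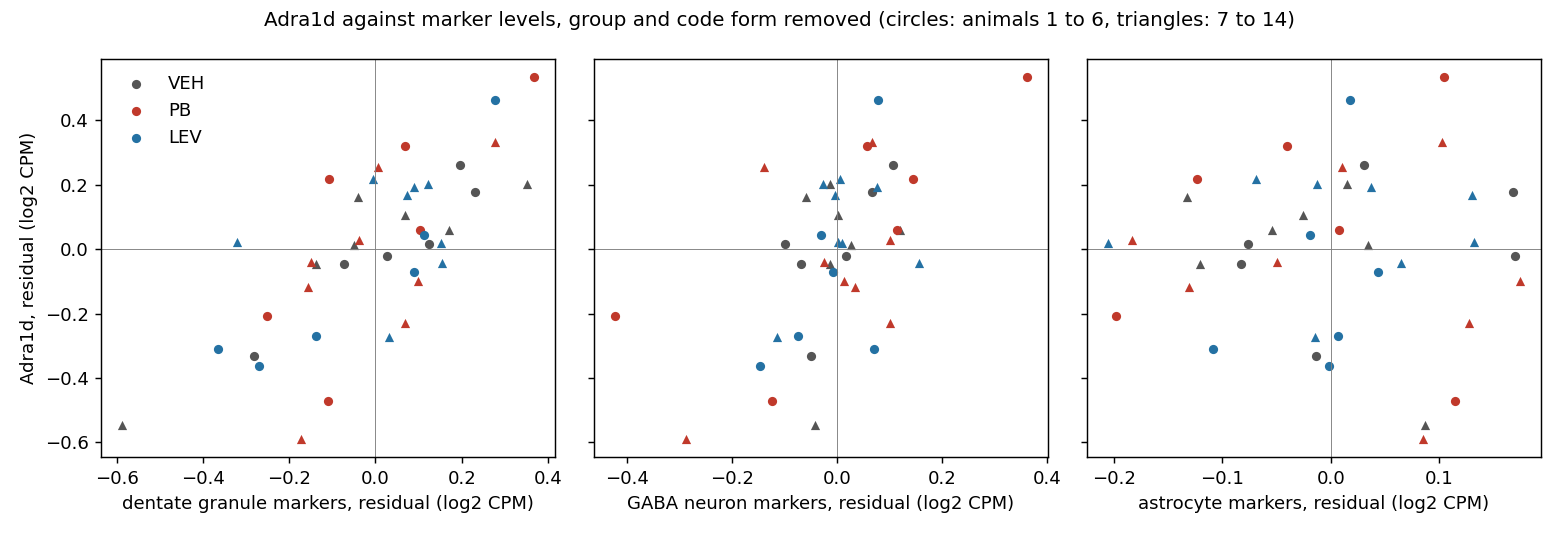
Adra1d against the mean level of dentate granule, GABA neuron and astrocyte markers, both axes in log2 CPM (counts scaled by library size) after removing group and code form, 1 point per animal. The points rise together for dentate granule (r = 0.725) and GABA neuron markers (r = 0.563) and show no slope for astrocyte markers (r = -0.02).

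Among all transcripts of other symbols, those with the highest Pearson r to Adra1d over the 41 animals, with group and code form removed, were C1ql2 (0.802), Adcy9 (0.78), Scg2 (0.753), Pkp2 (0.752) and Mapk10 (0.749). With code form alone removed, Adcy9 was the closest (0.829), and C1ql2 (0.734) was at rank 33 and Mapk10 (0.747) at rank 22. C1ql2 encodes a secreted protein of granule cell synapses, and Scg2 encodes a granin of dense-core vesicles. These values describe libraries that also share depth and dissection. For Adra2a the closest were Atp2b4 (0.788), Tox2 (0.768) and Slc7a3 (0.763), for Adra2c they were Dcakd (0.697) and Sik3 (0.694), and for Adrb1 they were Mfn2 (0.681), Pitpnm1 (0.68) and Abcb8 (0.676). Adra1b was closest to Cbln1 (0.669), Ptgfrn (0.649) and Dusp26 (0.647), and Adra1a to Kcna2 (0.609), Ago2 (0.56) and Cdh6 (0.537). None of the receptors was among the closest of another. Between pairs of receptors r ran from -0.306 for Adra1b with Adra1d to 0.409 for Adra2c with Adrb1.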

How the data were processed

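The authors aligned the reads with STAR 2.7.3a to rn6 and, with the Partek E/M module, assigned reads to RefSeq transcripts. The deposited values are these estimated counts, without normalization; 13.7% of them are not whole numbers. A deposited table of the authors' own comparisons (DESeq2 fold changes, p values and group means) was not used.

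Rounded counts went into edgeR 4.0.16 under R 4.3.3 (filterByExpr, TMM, glmQLFit and glmQLFTest). One model held the 3 groups and the form of the sample code as an additive term, in place of the batch normalization the study applied. Normalized counts are scaled to the mean effective library size, 11405252. Correlations used log2 CPM (prior count 2), SciPy 1.17.1 and 100000 permutations, two-sided. On simulated counts for PB against VEH over 13005 transcripts, 101 of 104 transcripts changed 2-fold and 63 of 95 changed 1.25-fold had an adjusted p under 0.05.

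The receptors and all gene lists were chosen with earlier results of these data known. Text names every receptor, list transcripts with an adjusted p under 0.05 in a drug comparison or else the 2 with the smallest unadjusted p between PB and VEH, and the 3 transcripts closest to each receptor (5 for Adra1d). Some transcripts that this rule names are not reported here. Th, Dbh and Adcy9 were added after their values were seen. Alternatives were DESeq2 1.42.0, its size factors, other filters, other batch terms, a replicate block, each code form alone, all 14 VEH animals, only the groups compared, sums per symbol, each animal left out and 2 marker covariates.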

Additional observations from a re-analysis of the deposited data

Results flagged for a closer look

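The VEH animal labelled as excluded (animal 7) had higher normalized counts than all 41 analysed animals for 4 of the 7 receptors. Its values were 70.1 for Adra1b (highest of the others 64.8), 528 for Adra2c (highest 506), 53.4 for Adra1a (highest 43.6) and 16.7 for Adra2b (highest 13.6). Adra1d in this animal, 344, lay within the VEH range. Ribosomal Rn18s took 2.42% of its counts, against 0.384% to 1.68% in the others. With this animal kept, Adra1d stayed called for PB against VEH (adjusted p = 0.0338, edgeR) but not against LEV (adjusted p = 0.0738, edgeR).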

How the results depend on the processing

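All values are log2 fold changes or counts of transcripts called. The Adra1d difference of PB against VEH kept its call in 11 of 15 alternatives. It was -0.34 (adjusted p = 0.0671, edgeR) without the batch term and -0.26 (0.527) in animals 1 to 6 alone. Under covariates chosen after seeing the data, it was -0.30 (0.0063) with the dentate marker level and 0.0085 with the GABA neuron marker level. The dentate fit missed the fold limit only, and its adjusted p is a description with no test, since its markers hold C1ql2. Each of these fits left 0 receptors called. PB against LEV kept the call in 9 of 15, with 0 receptors called without the batch term (-0.32), with a batch-by-treatment term (-0.31), in animals 1 to 6 alone (-0.18), with all 14 VEH animals (-0.33), with only the 2 groups compared (-0.33) and with the GABA neuron marker level (0.010). The causes were not tested.

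Transcripts called for PB against VEH (79) were 141 after subtracting batch effects before DESeq2, 17 in animals 1 to 6, 168 in animals 7 to 14 and 2 with the GABA covariate. For LEV against VEH (0) they were 6 by DESeq2, 1 without a filter, 1 at a mean of at least 50 counts, 5 with the batch-by-treatment term, 9 after subtraction, 170 in animals 1 to 6 and 6 in animals 7 to 14. For PB against LEV (76) they were 24 in animals 1 to 6, 34 with all 14 VEH animals and 0 with the GABA covariate.

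Uncalled differences changed sign as follows. For PB against VEH, Adra2a was -0.0094 with the batch-by-treatment term, -0.20 in animals 1 to 6, -0.027 with all 14 VEH animals, -0.0022 with the dentate and -0.020 with the GABA covariate. Adra1a was -0.17 in animals 1 to 6 and -0.054 with all 14 VEH animals, and Adra1b was -0.061 with all 14, -0.0068 with the dentate and -0.20 with the GABA covariate. In animals 7 to 14, Adra2c was 0.026 and Adrb1 0.084. For LEV against VEH, animals 7 to 14 gave 0.045 for Adra1d, 0.22 for Adra1a and 0.040 for Adra2c, and the dentate covariate gave 0.049 for Adra1d and 0.0029 for Adra2c. For PB against LEV, Adrb1 was -0.080 in animals 1 to 6 and Adra2a 0.017 in animals 7 to 14.

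Leaving out each animal in turn gave -0.39 to -0.30 for Adra1d in PB against VEH, called in 34 of 41, and -0.37 to -0.28 in PB against LEV, called in 27. Receptors called ranged from 0 to 1 in both. All transcripts called ranged from 52 (without PB animal 7) to 115 for PB against VEH, 0 to 4 for LEV against VEH and 39 (without PB animal 7) to 101 for PB against LEV. Sign changes on leaving out an animal were seen for PB against VEH in Adra1a (-0.00081 to 0.12), Adra1b (-0.055 to 0.081) and Adra2a (-0.037 to 0.047), for LEV against VEH in Adra1d (-0.057 to 0.018) and Adra2c (-0.050 to 0.028), and for PB against LEV in Adra2c (-0.060 to 0.012).

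With the animal number as a replicate block, Adra1d was -0.33 for PB against VEH, -0.34 against LEV and 0.0065 for LEV against VEH. Of 40 same-numbered pairs, 10 had a correlation over 0.1, and 3 of 41 animals correlated best with their own number. No label gives the litter, and these values cannot decide whether same-numbered animals shared a litter. Counts are low for Adra1a, Adra1b, Adra2b and Adrb1, whose intervals for LEV against VEH hold a 1.25-fold change.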
